A study of Mus musculus with 8 samples.

Results

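The genes described here are 10 markers of stromal progenitors and mural cells of brown adipose tissue (BAT): Pdgfra, Cd34, Dpp4, Dlk1 and Ly6a for the progenitors, and Pdgfrb, Acta2, Tagln, Rgs5 and Trpv1 for pericytes and smooth muscle. They were chosen by name. Their ATAC-seq summits were taken by position, counting each one that fell inside one of these genes or at most 50 kb from one of its RefSeq mRNA start sites. By this rule, 21 of the 32173 summits in the authors' deposited list (0.0653%) belonged to them. ATAC-seq marks open chromatin, where the Tn5 transposase can insert sequencing adapters, and a summit is the highest point of a peak. Each summit carries 1 value, called the score here, which is the MACS2 q-value of its peak on a −log10 scale.

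BAT nuclei came from 2 WT and 2 Dot1L-BKO mice at 12 weeks of age, on chow, killed after 4 hr at 4°C. Dot1L-BKO mice carry floxed alleles of Dot1l, the H3K79 methyltransferase, and a Ucp1-Cre transgene, so that the deletion is driven in Ucp1+ cells. The WT mice were littermates with floxed Dot1l alleles, and the nuclei of each mouse were processed separately. All 4 libraries stand behind 1 list with 1 score per peak, which names WT against Dot1L-BKO. No score belongs to a single library, so that no difference between genotypes, replicate error or library depth could be given, and no test was made. Which libraries entered peak calling as the control is not given in the sources used here, and a summit therefore does not say in which genotype the site was more open. If the libraries of one genotype were the control, a score measures a difference between genotypes, and a site equally open in both would have no summit. Summits and scores are therefore given as entries of the list and not as levels of open chromatin.

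BAT is made of more than brown adipocytes. Around the adipocytes and capillaries lie fibroblast-like progenitors, which can give rise to new adipocytes, and mural cells, which wrap the vessels as pericytes on capillaries and as smooth muscle on arterioles. The platelet-derived growth factor receptors Pdgfra and Pdgfrb are tyrosine kinases that mark the progenitors and the mural cells, respectively. Dlk1 (Pref-1) is a transmembrane protein that holds preadipocytes back from differentiation, and the smooth muscle genes Acta2 and Tagln are classical targets of serum response factor, which binds the CArG box. Trpv1 is a cation channel opened by heat and capsaicin that is best known in sensory neurons and has been used to mark vascular smooth muscle progenitors in BAT. In whole tissue, a change in the number of cells of a type and one in open chromatin per cell cannot be told apart.

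The sequences below are the 101 bases around summits that lay nearest to a marker gene's own start site and outside untranslated sequence. They are shown as examples of such sites in 4 of the 5 genes that had one, and the Pdgfrb site is not printed here. For Trpv1 the higher of 2 scores was taken. The Tagln window is not its highest either, since the summit at -2158 bp lies in a UTR, and it is shown for its repeated sequence. Positions are of mm10 and letters are the forward strand of the reference. Capitals mark the ETS pattern CCGGAA, found on both strands and overlapping itself, which was the only pattern searched that occurred in these 4 windows.
Pdgfra, summit at -463 bp, chr5:75155653-75155753: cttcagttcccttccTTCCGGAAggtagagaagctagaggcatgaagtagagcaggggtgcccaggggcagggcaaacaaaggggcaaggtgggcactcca
Cd34, summit at 37972 bp, chr1:194976743-194976843: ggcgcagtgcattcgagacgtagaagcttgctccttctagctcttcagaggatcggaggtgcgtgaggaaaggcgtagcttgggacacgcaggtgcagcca
Trpv1, summit at 2313 bp, chr11:73236412-73236512: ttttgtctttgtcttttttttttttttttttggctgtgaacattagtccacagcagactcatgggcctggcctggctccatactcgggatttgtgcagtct
Tagln, summit at -4443 bp, chr9:45940451-45940551: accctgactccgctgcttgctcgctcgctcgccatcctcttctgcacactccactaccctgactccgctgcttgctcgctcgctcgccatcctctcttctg

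Most marker promoters held no summit. Pdgfra was the 1 of the 10 genes with a promoter summit, that is, a summit at most 1 kb from a curated RefSeq mRNA start site. Over all 21000 genes with such an mRNA, the share was 45.2%. By the wider rule, 7 of the 10 genes had at least 1 summit, against 72.5% of all genes. Dpp4, Dlk1 and Rgs5 had none. With a promoter window of 5 kb, 3 of the 10 genes, Pdgfra, Tagln and Trpv1, had a promoter summit, against 10506 of all 21000 genes (50%). The absence of a summit says only that no peak passed the authors' cutoffs there. Of the 21 summits, 8 had the marker gene's start site as their nearest one, and they belonged to 5 genes, Pdgfra, Cd34, Pdgfrb, Tagln and Trpv1. The share of all genes with such a summit was 54.4%. Over all genes, the same rule gave 84507 pairs of a gene and a summit from 32173 summits. Since each summit has only 1 nearest gene, most of those pairs, too, were of a summit nearest to another gene.

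**Figure D1:**
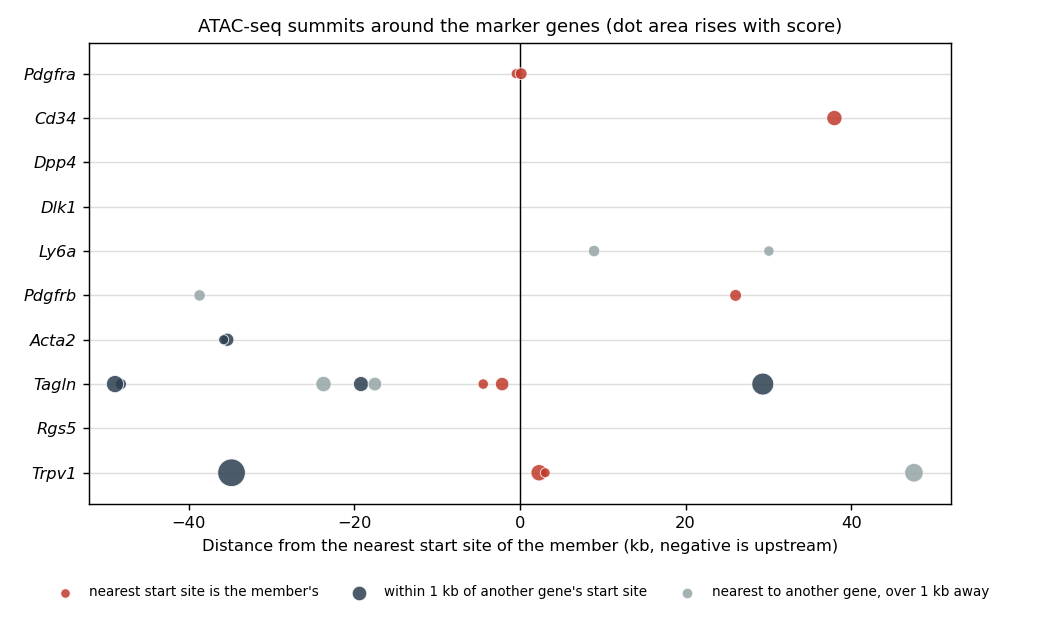
Summits of the 10 marker genes by their distance in kb from the nearest start site of that gene, with 1 row per gene and dot area rising with score. Red dots have that gene's start site as their nearest, dark dots lie within 1 kb of another gene's start site and grey dots are nearest to another gene but farther away. Only Pdgfra has dots at 0, and Dpp4, Dlk1 and Rgs5 have none.

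The scores of the 21 summits ran from 1.99 to 36.1 with a median of 5.87 (95% interval 3.32 to 9.21, from binomial order statistics, counting error only). That interval takes the summits as independent, although 8 of them lay in the window of Tagln. The median over all summits was 5.0, with quartiles of 3.05 and 9.39. Of the 21, 11 lay above that median, and 5 had a score of 10 or more, as did 23.5% of all summits. The 8 summits nearest to a marker's own start site had a median of 4.16 and a highest score of 10.7, and 3 of them lay above the median of all summits. The 7 summits within 1 kb of another gene's start site had a median of 8.65, the same value as all summits within 1 kb of a start site. The scores of 36.1 and 21.6, the highest of the 21, both stood at promoters of neighbouring genes. Scores came in steps. Of the 21 scores, 20 were shared with at least 1 other summit in the list, as were 95.3% of all scores, and the value 4.16 alone occurred at 1942 summits.

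**Figure D2:**
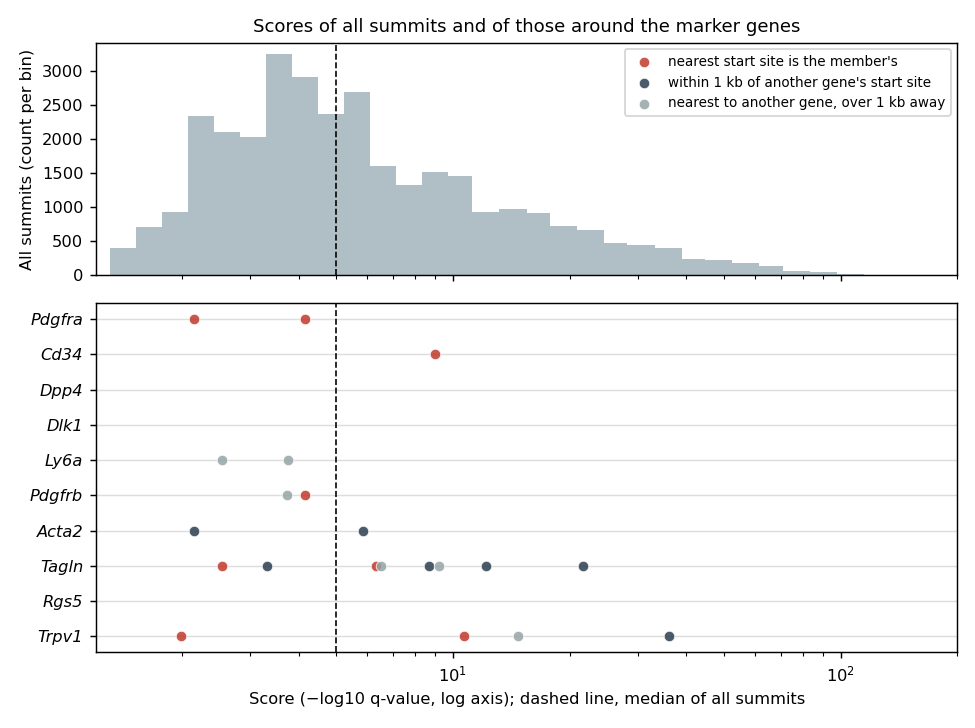
Scores on a log axis for all summits (upper panel, count per bin, cut at 200 although the highest score is 13426) and for the summits of each marker gene (lower panel, 1 dot per summit), with the median of all summits, 5.0, as a dashed line. Red dots are nearest to the marker's own start site and run from 1.99 to 10.7, and the dark dots at the promoters of other genes reach 36.1.

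Pdgfra, the receptor for PDGF-AA and the defining surface marker of fibroblast-like progenitors, spans 75152251 to 75198206 of chromosome 5 (forward strand). It has 3 curated start sites. Both of its summits stood at the most downstream start site, 75156166, that of NM_001083316.2. The first, at 75155703, was at -463 bp, in intron 1 of the longer transcripts, with a score of 2.15, and 7.16% of all summits had a lower score. The second, at 75156306, was at 140 bp, in the 5′ UTR of exon 1, with a score of 4.16, above 38.4% of summits. From the other start sites, at 75152251 and 75152936, the nearest summit was 3452 and 2767 bp downstream. Within 100 bp of the second summit, the sequence had a GC content of 67.7% and 20 CpG dinucleotides, and around the first 55.2% and 5. Pdgfra had no other gene's start site in its window, and its next summit lay 101059 bp from a start site. Both Pdgfra scores lay below the median of all summits, and with a score minimum of 5 its promoter held none.

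Pdgfrb, the receptor for PDGF-BB on pericytes and smooth muscle, spans 61045150 to 61085067 of chromosome 18 (forward strand). Its promoter held no summit. A summit at 61071190, in intron 10 and 26040 bp downstream of the start site, had a score of 4.16, the same step as the higher Pdgfra summit. The other, at 61006450, lay at -38700 bp in intron 4 of Slc6a7, a proline transporter gene, with a score of 3.73. Neither Slc6a7 nor Cdx1, an intestinal homeobox gene, which both have a start site in the window, had a promoter summit. The highest summit of each PDGF receptor gene had the same score, at a start site in Pdgfra and within the gene in Pdgfrb.

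For the genes around these receptors, a list of the PDGF ligands and the other class III receptor kinases was made. Of its 7 genes, 3 (42.9%) had a promoter summit, near the 45.2% of all genes, and all 7 had at least 1 summit in their window, as had 72.5% of all genes, that of Csf1r being shared with Pdgfrb. The ligand genes Pdgfd and Pdgfb had promoter scores of 7.05 and 2.18, and the stem cell factor receptor Kit had 4.16. Pdgfb held 8 summits, 5 of them nearest to its own start site, with a highest score of 4.16. Pdgfa had 2 and Pdgfc 1, none at a promoter, with highest scores of 4.15 and 4.16. Csf1r, the macrophage colony-stimulating factor receptor and the neighbour of Pdgfrb on the chromosome, had 1 summit in its window, which was the Pdgfrb summit in intron 10, at -34382 bp from the Csf1r start site and not a separate site. No gene of this list had a promoter score above 7.05.

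Cd34, a sialomucin on progenitors and endothelial cells, spans 194938821 to 194961292 of chromosome 1 (forward strand). It had 1 summit, at 194976793, which lay 37972 bp downstream of the start site and beyond the end of the gene. Its score of 9.01 was above 73.8% of summits. It was the highest of the progenitor markers. Within 1 kb of this summit is the start site of an annotated noncoding RNA, Gm16897, so that the summit was nearest to Cd34 only among mRNA genes. The window had a GC content of 59.7% and 11 CpG dinucleotides.

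Ly6a (Sca-1), a GPI-anchored surface protein, spans 74994877 to 74998031 of chromosome 15 (reverse strand), within a cluster of related Ly6 genes. Its 2 summits lay 8947 and 30057 bp downstream of its start site, with scores of 3.75 and 2.53. The nearer one, at 74989084, was closer to the start site of Ly6i, at -5654 bp, and the farther one, at 74967974, to that of Ly6e, at 12949 bp. Neither of these genes had a promoter summit. Of the 50-base words in the window of the nearer summit, 78.3% occurred once in the genome, and the others occurred more often. Reads were 50 bases long, and a single read from such a word fits more than 1 place. All words around the farther summit occurred once.

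Dpp4 (CD26), a cell-surface peptidase of early progenitors, and Dlk1 had no summit by the rule. Dpp4 spans 62330073 to 62412231 of chromosome 2 (reverse strand), and its nearest summit stood 212127 bp from its start site with a score of 4.17. Dlk1 spans 109453455 to 109463336 of chromosome 12 (forward strand). Its nearest summit was 78341 bp away with a score of 3.75. Neither gene had another gene's mRNA start site within its window. With a window of 100 kb, Dlk1 had 1 summit and Dpp4 still none, while 18.5% of all genes had none.

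Acta2, smooth muscle alpha-actin, spans 34240336 to 34255373 of chromosome 19 (reverse strand). It had no summit in its gene body and none within 10 kb. The 2 summits in its window belonged to the promoter of Fas, a death receptor gene, at 64 and 504 bp downstream of the Fas start site. They stood at -35350 and -35790 bp from Acta2, with scores of 5.87 and 2.15. Stambpl1, a deubiquitinase gene that also has a start site in the window, had no promoter summit.

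Tagln (SM22-alpha), an actin-binding protein of smooth muscle, spans 45929628 to 45936058 of chromosome 9 (reverse strand) and had the most summits, 8. Its window held the start sites of 4 other genes, and 77.9% of all genes had fewer. All 4, Pcsk7, Rnf214, Sidt2 and Pafah1b2, had a promoter summit. The highest score, 21.6, was at 45906735, within 1 kb of the start sites of both Pcsk7, a proprotein convertase gene, and Rnf214. The promoter of Sidt2, a lysosomal membrane protein gene, had a score of 8.65 at -15 bp. At Pafah1b2, a subunit gene of platelet-activating factor acetylhydrolase, summits at 130 and -100 bp had scores of 3.32 and 12.2. The summits at 45953578 and 45959787, at 1671 and -4538 bp from the Sidt2 start site, had scores of 6.53 and 9.21.

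Of the 8 Tagln summits, 2 had the Tagln start site as their nearest. The one at 45938216, at -2158 bp, had a score of 6.35, above 61.8% of summits. It lay in exon 26 of Sidt2, in its 3′ UTR. The one at 45940501, at -4443 bp, lay in intron 24 of Sidt2 with a score of 2.53, within 1 kb of the microRNA gene Mir7087. Of its 50-base words, 0% occurred only once in the genome, and the sequence printed above holds the same stretch more than once. No summit stood within 1 kb of the Tagln start site.

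Rgs5, which switches off G-protein signalling in pericytes, spans 169655501 to 169695813 of chromosome 1 (forward strand). It had no summit by the rule. The nearest, at 169531605, stood at -123896 bp from its start site, with a score of 14.0. That position is the promoter of Nuf2, a kinetochore gene, at -141 bp. No other gene has an mRNA start site within 50 kb of Rgs5.

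Trpv1 spans 73234149 to 73261322 of chromosome 11 (forward strand) and had 4 summits. The summits at 2313 and 3050 bp downstream of its start site were both in intron 1, with scores of 10.7 and 1.99. The first was the highest of the 8 summits nearest to a marker's own start site, above 77.9% of all summits, and the second the lowest of the 8. At -34841 bp stood the highest score of the whole set, 36.1, above 96.5% of summits. It lay within 1 kb of the start sites of Shpk, a sedoheptulose kinase gene, and Ctns, the lysosomal cystine transporter gene. The last summit, at 47581 bp, lay in coding exon 7 of Trpv3, a related channel gene, with a score of 14.7. Trpv3 itself had no promoter summit.

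The distance limit of the rule fell between these values. Just inside it stood the summits of Tagln at -48913 bp (score 12.2) and -48198 bp (3.32) and that of Trpv1 at 47581 bp (14.7). Just outside stood summits at -52101 bp from Pdgfrb (5.07), -52957 bp from Trpv1 (2.91) and 53948 bp from Cd34 (2.92). The summits just inside were at or in other genes, and none of them was nearest to the marker's own start site.

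By number, the markers lay around the typical gene. Their median was 2.00 summits per gene, as over all genes, and 2 genes, Tagln and Trpv1, lay above it. Of all genes, 45.9% had fewer than 2 summits, 12.5% had 2 and the rest had more. Counting only summits nearest to the gene's own start site, the median was 0.50 for the markers and 1.00 over all genes. Per 100 kb of window, the median of the 10 genes was 1.96 against 1.66 over all genes. Over all genes with up to 15 others in the window, the median count did not fall as that number rose. Genes with no other start site in the window had a median of 1.00 summit over 5791 genes, and those with 4 to 7 other genes a median of 5.0 over 3948 genes. Pdgfra, Cd34, Dpp4, Dlk1 and Rgs5 had no other gene, Ly6a, Pdgfrb and Acta2 had 2, Trpv1 had 3 and Tagln had 4. The 5 progenitor markers had 5 summits and the 5 mural markers 16, and their windows held a median of 0 and 2.00 other genes. What part gene crowding had in that difference was not tested. In all, the windows held 13 other genes, of which 7 (53.8%) had a promoter summit, against 45.2% of all genes. Pcsk7 and Rnf214 had the same promoter summit, and so had Ctns and Shpk, so that these genes are not separate sites.

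**Figure D3:**
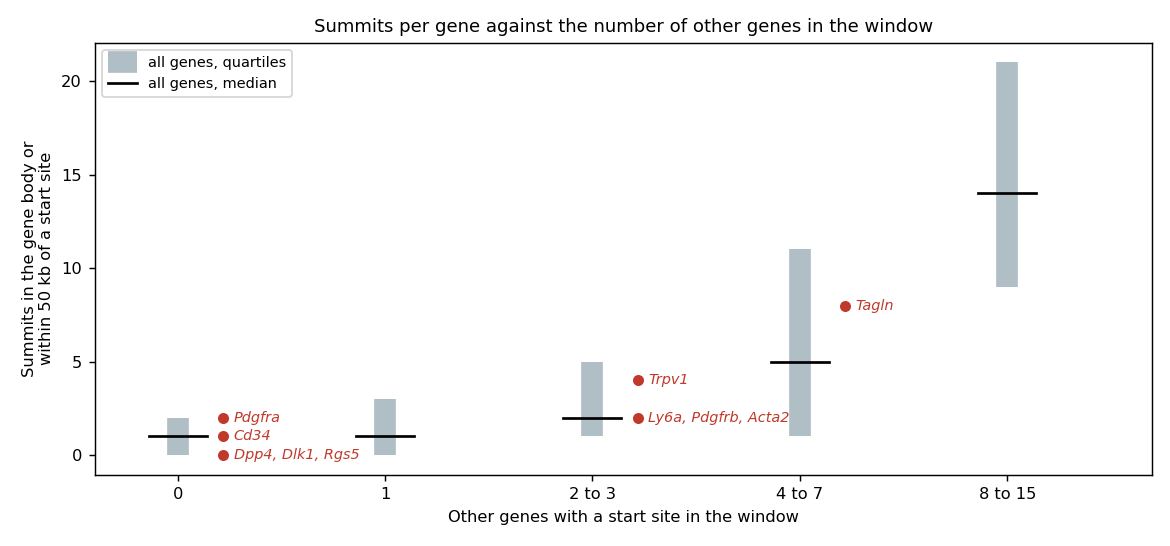
Summits per gene by the rule of 50 kb or inside the gene, against the number of other genes with a start site in that window. Grey bars span the quartiles and black lines the medians of all genes with up to 15 such neighbours, and red dots are the marker genes, placed beside the bar of their class. Every marker lies within the quartiles of its class, from 0 summits (Dpp4, Dlk1, Rgs5) to 8 (Tagln).

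Promoter sequences, from 250 bases before to 50 after a start site, were present in the RefSeq table (GRCm38.p6) for 7 of the 10 genes. Pdgfrb, Ly6a and Tagln had no entry, the Pdgfra entry is that of its most upstream start site, and the Dlk1 entry lies at another start site than the curated mRNAs. The GC content of the 7 promoters ran from 45.3% (Dpp4) to 55.7% (Dlk1). Over all genes, the median GC content was 61.7% for promoters where the gene held a promoter summit and 51.3% for the rest. Among the 4909 genes whose promoter lay in the same GC range as these 7, 33.6% had a promoter summit at any of their start sites, and of the 7 markers 1 did, Pdgfra. Its summits stood at the most downstream start site and not at the one of its table entry, from which the nearest summit was 3452 bp away, so that 0 of the 7 promoter sequences had a summit within 1 kb of their start.

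The promoters of Acta2, Trpv1 and Dpp4 are shown as examples that held no summit but did hold letters of the patterns searched. That of Rgs5, which is not printed, also held no summit. It held a pattern of GATA factors before its start and an E-box in the 50 bases after it. The promoters of Cd34 and Dlk1 held neither a summit nor any of the patterns. The 250 bases before each start site are given 5′ to 3′ on the gene's own strand. Capitals mark, in Acta2, the patterns of an E-box (CAGCTG), TEAD (GGAATG) and RBPJ, the Notch effector (TGGGAA), in this order. Patterns were matched exactly, and a stretch that departs from one by a letter was not marked. The absence of a mark in Acta2 therefore does not say that its promoter lacks a CArG box. In Trpv1 they mark a CArG box and then RBPJ on each strand, and the 50 bases after the start, which are not printed, add an E-box. In Dpp4 they mark RBPJ, then TEAD overlapping the EBF palindrome, and last AGATAA, a pattern of GATA factors.
Acta2, chr19:34255374-34255623, minus strand: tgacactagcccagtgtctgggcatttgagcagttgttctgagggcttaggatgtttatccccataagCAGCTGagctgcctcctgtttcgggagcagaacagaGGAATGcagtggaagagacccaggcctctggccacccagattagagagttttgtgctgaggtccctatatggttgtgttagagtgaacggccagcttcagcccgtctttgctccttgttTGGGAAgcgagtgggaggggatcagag
Trpv1, chr11:73233899-73234148, plus strand: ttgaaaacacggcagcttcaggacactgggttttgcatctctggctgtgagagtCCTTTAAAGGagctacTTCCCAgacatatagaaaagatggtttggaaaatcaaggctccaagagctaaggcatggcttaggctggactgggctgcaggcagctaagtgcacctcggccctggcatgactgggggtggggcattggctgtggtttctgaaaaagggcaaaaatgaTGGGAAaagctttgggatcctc
Dpp4, chr2:62412232-62412481, minus strand: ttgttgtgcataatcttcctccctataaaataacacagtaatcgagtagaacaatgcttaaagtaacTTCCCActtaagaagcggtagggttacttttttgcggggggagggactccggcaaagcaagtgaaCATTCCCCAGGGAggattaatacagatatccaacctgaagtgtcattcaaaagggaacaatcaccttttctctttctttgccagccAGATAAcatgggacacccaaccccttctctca

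Of all 32851 promoters in that table, each counted over its whole length, 1.63% held a CArG box, 25.6% the RBPJ, 14.7% the TEAD, 16.3% the E-box and 11.2% the pattern of the GATA factors, and 0.904% the EBF palindrome. The matches are letters in a window and not sites of binding.

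Around the summits themselves, 13 short patterns were searched on both strands, up to 100 bases to each side. ETS (CCGGAA) was at 5 of the 21 summits (23.8%) against 9.57% of all summits. Within 50 bases of the summit it was at 2 (9.52%), against 5.33% of all summits. Of the 5, 1 was the Pdgfra summit at -463 bp and the others lay within 1 kb of the start sites of Fas, Pcsk7, Pafah1b2 and Shpk. Of all RefSeq promoters, counted over their whole length, 14.9% held the ETS pattern. The RBPJ pattern was at 4 (17.4% of all summits) and the GC box of SP and KLF factors (GGGCGG) at 3 (14.3% against 20.6%). The CArG box, AP-1 (TGANTCA) and the EBF palindrome (TCCCNNGGGA) were at none of the 21, and at 0.752%, 6.40% and 1.33% of all summits. The NFI pattern (TTGGCA) was at 2, against 10.9% of all summits. Each of the other 6 patterns was at 1 summit. For 1 of 21 the share is 4.76%. C/EBP (TTGCNNAA) was at the Pdgfrb summit at -38700 bp and at 10.9% of all summits, and the CTCF core (CCANNAGNNGGC) at the Pdgfra summit at 140 bp and at 2.54%. TEAD and the pattern of the GATA factors were both at the Ly6a summit at 8947 bp, and at 9.18% and 3.78% of all summits. The E-boxes were at Tagln summits, CACGTG at -17520 bp (4.68% of all summits) and CAGCTG at -23729 bp (13.5%). These counts changed with the window. Within 200 bases of the summit, NFI was at 6 (28.6% against 19.2% of all summits) and TEAD at 5 (23.8% against 17.1%), both then above the share of all summits and not below it, and the CTCF core was at 4, against 4.63%. No window was more than 50% repeat-masked, against 9.98% of all summit windows, and in 19 of the 21 windows every 50-base word occurred once in the genome.

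Further markers of the same cells were taken from lists of 20 genes each. Of the other progenitor markers, 5 of 20 had a promoter summit, against 45.2% of all genes, and 9 of 20 had a summit nearest to their own start site, against 54.4%. The highest promoter scores were those of F3 (14.0), the tissue factor gene of a regulatory progenitor subset, Ebf2 (12.5), a transcription factor of brown preadipocytes that brown adipocytes also express, and Itgb1 (8.65), an integrin of most cells. Fbn1 and Cd55 had 7.58 and 2.15. Dcn, Lum, Anxa3, Wt1, Mfap5, Bmp7 and Fap, 7 genes that include the matrix genes decorin and lumican, had no summit by the rule, as had 27.5% of all genes. Zfp423, a regulator of preadipocyte commitment, had 4 summits, all nearest to its own start site and none at a promoter, with a highest score of 17.4. Pi16 and Icam1 had 16 and 12 summits, of which 1 and 0 were nearest to their own start site.

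Of the other mural markers, 6 (30.0%) had a promoter summit, against 45.2% of all genes. The highest promoter scores were at Lmod1 (14.4), an actin-nucleating protein of smooth muscle, Smtn (10.4), smoothelin, and Mcam (8.12), the CD146 adhesion molecule. Kcnj8, Myocd, Itga8 and Cald1, 4 of the 20 genes, had no summit by the rule, a smaller share than the 27.5% of all genes. Kcnj8 encodes a pericyte potassium channel, and Myocd encodes myocardin, the cofactor of serum response factor. Myh11, the smooth muscle myosin, had 2 summits and Mylk, its light-chain kinase, 17, of which 0 and 1 were nearest to the gene's own start site. Of the 20 genes, 11 had a summit nearest to their own start site, near the 54.4% of all genes.

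Lists for other cells of the tissue were counted in the same way, and their counts stand against the 45.2% of all genes with a promoter summit and the 27.5% with no summit. Of 10 endothelial markers, 3 had a promoter summit, Cldn5 (6.0), Flt1 (5.55) and Cdh5 (2.59), and Kdr, Tie1, Vwf and Emcn had no summit by the rule. Of 10 leukocyte markers, 1 had one, Cd68 (2.15), in a window that held 10 other genes, and Ptprc, Adgre1, Itgam, Lyz2 and Mrc1 had no summit. Of 10 brown adipocyte genes, 9 had a promoter summit, with Cidea (61.5), Fabp4 (35.0) and Ucp1 (33.7) the highest, and none was without a summit. The median number of summits nearest to the gene's own start site was 0.50 for the 10 markers of progenitors and mural cells, 1.5 for the endothelial, 0 for the leukocyte and 7.0 for the brown adipocyte genes. The promoter scores of Pdgfra, 2.15 and 4.16, were below the promoter score of each of the 9 brown adipocyte genes, the lowest of which was 6.02 (Adipoq and Dio2). These are counts of 1 list, and the lists were not compared by a test.

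**Figure D4:**
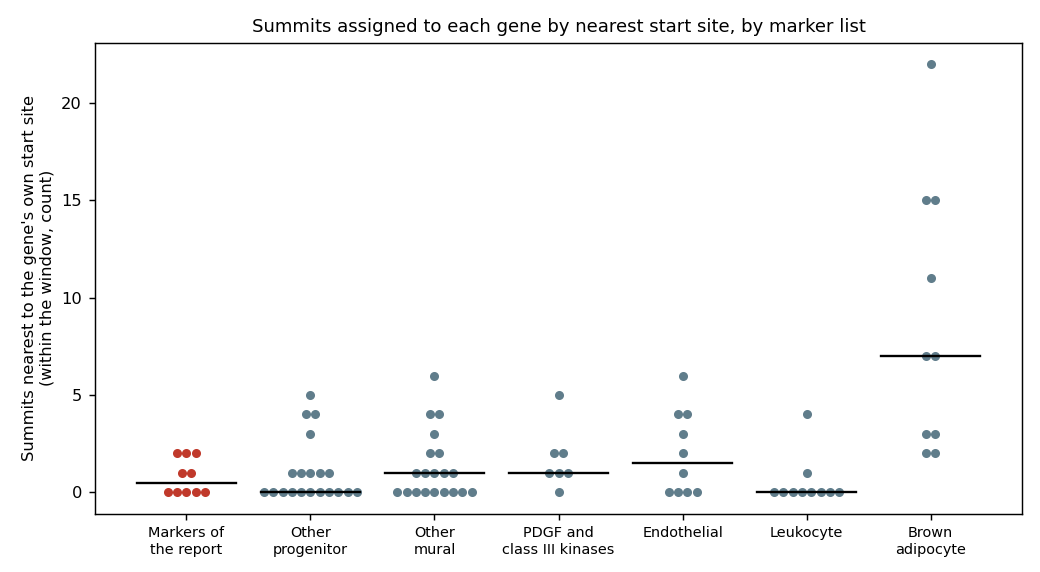
Number of summits in a gene's window that are nearest to its own start site, with 1 dot per gene, the 10 marker genes in red, the other lists in grey and the median of each list as a black line. The red dots run from 0 to 2, and the brown adipocyte genes from 2 to 22 with a median of 7.0.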

How the data were processed

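The ATAC-seq data came from 2 WT and 2 Dot1L-BKO mice, and the RNA-seq libraries were not analysed here. The authors aligned 50-base read pairs to mm10 (BWA-backtrack, run in Partek Flow). Peaks were then called by MACS2, version 2.1.1 in the submitters' processing notes, in its ATAC mode, keeping q-values up to 0.05 and enrichment of at least 2.0. Read shifting and the handling of duplicate and multi-mapped reads are not given in the sources used here. The deposited values are MACS2 scores, each a −log10 q-value for 1 summit, in 1 list for all 4 libraries, and the lowest was 1.31. Depth per library is unknown.

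Summits were placed on the RefSeq annotation of the same build (GRCm38.p6), on chromosomes 1 to 19, X and Y, with 25999 start sites of curated mRNAs. The rule was applied to every gene for the background. Counts, medians and shares are descriptions, and no test was made. The counting was tested on simulated data. The named genes were the 10 markers, genes whose start site lay within 1 kb of a marker summit or nearer to it than the marker's, and of each other list the 3 highest promoter scores and the genes without a summit. Zfp423, Pi16, Icam1, Myh11, Mylk, Fbn1, Cd55, Adipoq, Dio2, Pdgfa, Pdgfc and Csf1r were added after their values were seen, as were Stambpl1, Cdx1 and Nuf2. The members and lists were chosen with earlier results of these data known. Python 3.11.15, numpy 2.4.6, scipy 1.17.1 and matplotlib 3.10.9 were used.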

Additional observations from a re-analysis of the deposited data

How the results depend on the processing

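No paired analysis was possible because all libraries share a single score at each summit, which also kept any replicate from being left out. A count was taken to have moved when it changed by over 1.5 times, a median score when it left 3.32 to 9.21, and a median distance when it left 4443 to 35790 bp, the 95% intervals of the medians. Those intervals take the summits as independent, and the limits are therefore only a convention. By these limits 15 values moved and 38 did not. Requiring a score of 5 or more kept 11 summits, with a median score of 9.21, at its upper limit, at 4 of the 10 genes, and 0 promoters held one, against 63.3% and 36.1% of all genes. Requiring 10 or more kept 5 at 2 genes, Tagln and Trpv1, with a median of 14.7 and again 0 promoters, against 48.9% and 23.5% of all genes. These follow from leaving fewer summits. A window of 10 kb gave 8 summits, and so did keeping only summits nearest to the marker's own start site, each with a median distance of 2682 bp in place of 26040.0 bp. A window of 100 kb gave 41 summits at a median distance of 48913 bp, and 4 genes then lay above the median gene. A promoter window of 5 kb gave 3 genes with a promoter summit, Pdgfra, Tagln and Trpv1, against 50% of all genes. Merging summits within 500 bp gave 20 summits, a median score of 6.11 and a median distance of 24884 bp, and adding predicted mRNAs a median distance of 23729 bp, all within the limits. Leaving out the rest of the gene body changed no value. Of the motif counts, 11 moved and 15 did not with windows of 101 or 401 bp, with ETS at 2 in 101 bp, and NFI at 6, TEAD at 5, RBPJ at 9, the GC box at 6 and the CTCF core at 4 in 401 bp. In 401 bp, RBPJ was at 42.9% of the marker summits against 30.9% of all summits, and the GC box at 28.6% against 31.6%.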
